A study of Mus musculus with 9 samples.

Results

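Oligodendrocyte lineage transcription factors are the DNA-binding proteins that specify oligodendrocyte precursors and drive them to become myelinating cells. Transcripts of 10 of them were taken from a gene count table of whole mouse brain: Olig1, Olig2, Sox10, Sox8, Myrf, Nkx6-2, Nkx2-2, Zfp488, Tcf7l2 and St18. These factors were picked by name, with earlier results of these data known. The table held 49315 genes, 18492 of these had enough reads to be tested, and all 10 factors were among them. RNA came from individual male wild-type C57BL/6J mice with no treatment or transgene. Of these mice, 5 were young (3 months by the labels, 3 or 4 months by the study's methods) and 4 were old (33 months), and old mouse number 2 was not analysed here. Poly(A)-selected RNA of the brain was sequenced, so every value is an average over neurons and glia.

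Oligodendrocyte precursors arise in the neural tube and persist in the adult brain. The paired basic helix-loop-helix proteins Olig2 and Olig1 act at lineage specification and at maturation, and the SoxE proteins Sox10 and Sox8 are present along the lineage, with Sox10 inducing Myrf. Myrf, a membrane-bound factor that is cleaved to reach the nucleus, switches on the myelin genes of the mature cell and is needed to keep them on.

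Reads are assigned to a gene by their sequence, so the factors most at risk of sharing reads are the near-copies. The best-matching 150-base stretch of coding sequence, the length of 1 read, was therefore found for pairs of related factors in the GENCODE transcripts (GRCm38). The SoxE pair is shown because it was the most alike of the pairs compared and because its members moved in opposite directions with age. The related SoxE gene Sox9 is not among the factors and was not compared. The stretch lies mostly in the HMG box, the DNA-binding domain of Sox proteins, and 128 of its 150 bases (85.3%) were identical. In Sox10 it covered bases 294 to 443 of the coding sequence, in exon 2 (chr15:79163289-79163423) and exon 3 (chr15:79159389-79159403) on the minus strand. In Sox8 it covered coding bases 279 to 428, in exon 1 (chr17:25570110-25570244) and exon 2 (chr17:25569046-25569060), also on the minus strand. Capitals mark the bases at which the pair differs.
Sox10: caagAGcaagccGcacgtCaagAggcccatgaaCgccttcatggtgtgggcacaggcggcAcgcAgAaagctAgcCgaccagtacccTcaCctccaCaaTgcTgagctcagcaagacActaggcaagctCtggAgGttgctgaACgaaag
Sox8: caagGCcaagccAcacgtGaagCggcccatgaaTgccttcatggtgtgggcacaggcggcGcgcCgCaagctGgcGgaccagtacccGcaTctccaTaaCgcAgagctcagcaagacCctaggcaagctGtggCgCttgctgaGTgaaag
The Olig pair is shown for contrast, because it was less alike, with 96 of 150 bases (64%) the same in a stretch that takes in the later part of the helix-loop-helix domain and does not reach its basic DNA-binding region. Olig1 is a gene of 1 exon, and its stretch (coding bases 380 to 529) lay at chr16:91270256-91270405. The Olig2 stretch (coding bases 407 to 556) lay in exon 2 at chr16:91226806-91226955, and both genes are on the plus strand of the same chromosome. Capitals again mark the differing bases.
Olig1: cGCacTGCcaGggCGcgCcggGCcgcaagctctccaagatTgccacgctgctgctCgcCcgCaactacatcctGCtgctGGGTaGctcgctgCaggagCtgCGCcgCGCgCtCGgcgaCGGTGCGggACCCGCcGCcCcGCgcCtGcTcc
Olig2: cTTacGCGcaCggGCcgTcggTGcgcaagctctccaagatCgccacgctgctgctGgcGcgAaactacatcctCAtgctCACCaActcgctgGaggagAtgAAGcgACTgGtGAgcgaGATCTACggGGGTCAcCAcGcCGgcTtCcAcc
Across all annotated transcripts of each pair, the longest run of identical bases was 26 for Sox10 and Sox8 and 17 for Olig1 and Olig2. For the homeodomain pair Nkx2-2 and Nkx6-2 it was 11, and 88 of 150 bases matched in their best stretch. These runs were far shorter than a read. A separate source of shared reads is a gene on the opposite strand, and exons of 4 factors overlap one. Sox8 shares 329 exon bases with 2810468N07Rik (303 to 442 counts per library), Nkx6-2 shares 246 with Inpp5a (1297 to 2548 counts), and Nkx2-2 shares 278 with Nkx2-2os (9 to 23 counts). Olig1 shares 157 bases with Gm15966, which had at most 1 count. Whether strand was used in counting was not clear from the sources used here.

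The 9 libraries held 14229259 to 21150439 counts. Young replicate 4 stood apart from the other young libraries: it had 9.71 CPM (counts scaled to library size) of Itgax, a gene of reactive microglia, against 0.0687 to 0.261 in the other young libraries and 2.76 to 5.42 in the old ones. Without it, the log2 fold changes of Olig1 (-0.17, adjusted p = 0.0136) and Myrf (0.33, adjusted p = 0.000964) were still called, and Olig2 (0.042), Nkx6-2 (0.025), Tcf7l2 (-0.082), St18 (0.027) and Zfp488 (0.064) were not. Values without it for Sox10, Sox8, Nkx2-2 and the ratios stand beside those results. The myelin gene Mbp measured 2747 to 4021 CPM over the 9 libraries, which does not show which cells the reads of the 10 factors came from. Of the 18492 genes tested, edgeR's quasi-likelihood F-test called 2031 (11%) at a Benjamini-Hochberg adjusted p under 0.05, the threshold used throughout, with 1126 (6.09%) higher and 905 (4.89%) lower in old brain.

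Of the 10 factors, 4 were called by this test. Myrf and Sox10 were higher in old brain, and Olig1 and Sox8 were lower. All 4 kept their direction in each of 24 other ways of processing the data, but none was called on the deposited TPM values or with thalamic marker genes as a covariate. No factor changed by more than 0.58 on the log2 scale, the fold change threshold of the study, which 463 genes (2.5%) passed together with the adjusted p. At an unadjusted p under 0.05 the count was 5 of 10, beside 4712 genes (25.5%) of all tested, and DESeq2's Wald test also put no factor past both thresholds. The median log2 fold change of the 10 was 0.0053, beside -9.2e-05 over all genes. CPM did not overlap between the ages for the 4 called factors, which happened for 2327 genes (12.6%) of all tested. In bulk tissue, fewer cells of a type and less RNA per cell cannot be told apart, and this holds for every difference below.

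**Figure D1:**
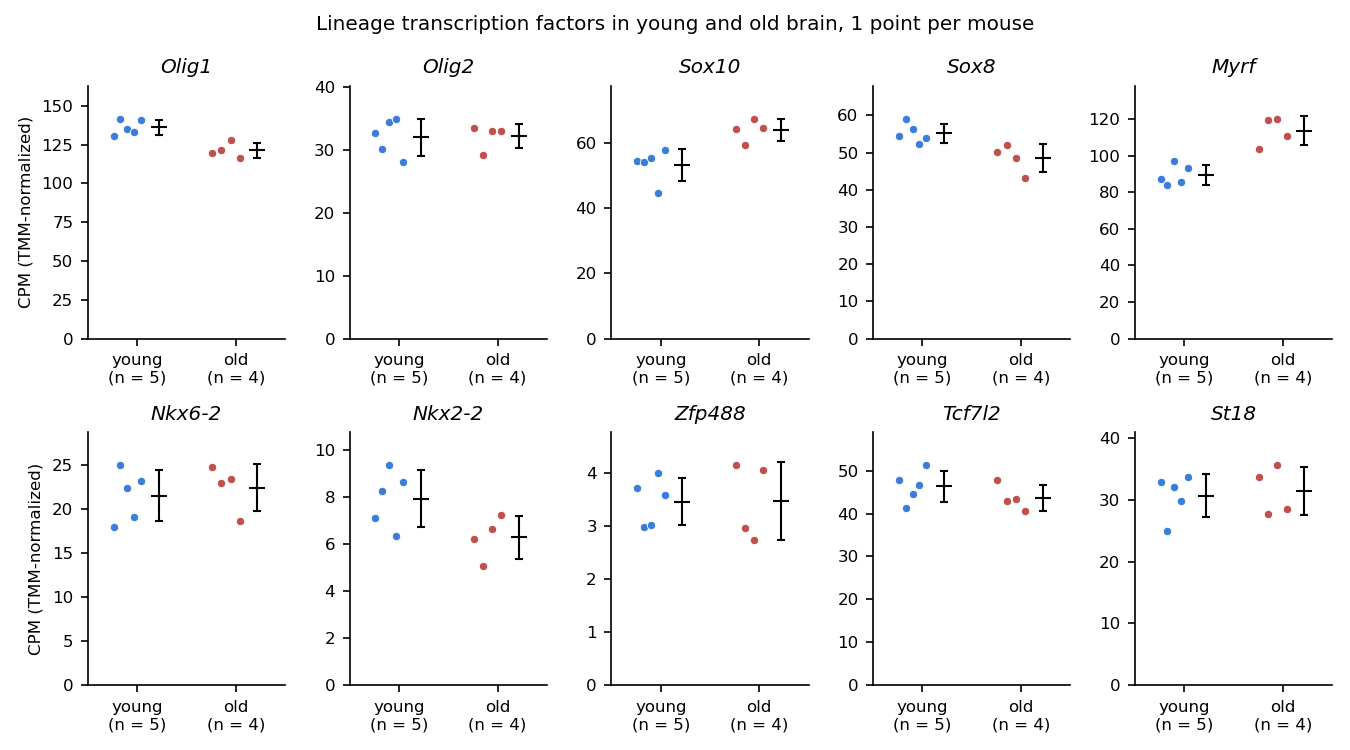
CPM of the 10 factors in each library, with 5 young and 4 old mice per panel (points are mice and bars are means ± SD). The old mice lie above all young mice for Myrf and Sox10, lie below them for Olig1 and Sox8, and overlap with them for the other 6 factors.

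**Figure D2:**
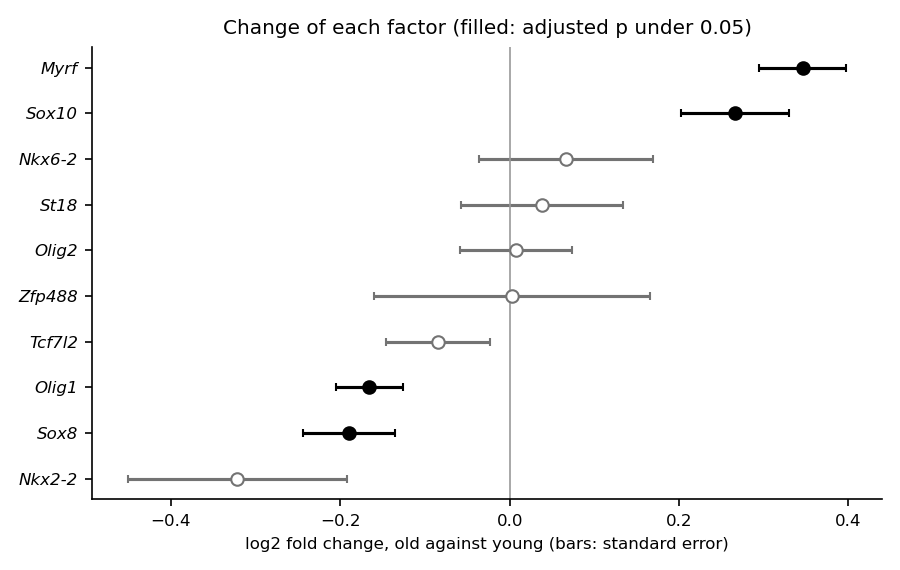
Log2 fold change of each factor, old minus young, from edgeR with bars of 1 standard error, where filled points passed an adjusted p under 0.05. Myrf (0.35) lies farthest above 0 among the filled points and Sox8 (-0.19) farthest below, and all points lie within the fold change threshold of 0.58 on either side.

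Olig1, which acts in maturation and remyelination (chr16:91269772-91271933, plus strand), was the most abundant of the 10. It measured 131, 142, 135, 133 and 141 CPM in young mice and 119.6, 121, 128 and 117 CPM in old mice. Every old value lay under every young one, and the mean fell from 136 ± 4.77 (SD, n = 5) to 121 ± 4.86 (SD, n = 4), a log2 fold change of -0.17 (SE 0.039, edgeR adjusted p = 0.0115). Its partner Olig2, the factor that specifies the lineage (chr16:91225457-91228677, plus strand), measured 32.6, 30.1, 34.5, 34.9 and 28.05 CPM in young mice and 33.4, 29.3, 33.0 and 33.0 CPM in old mice. The ages overlapped throughout, and the log2 fold change was 0.0076 (SE 0.066, edgeR adjusted p = 0.960).

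Sox10, the SoxE factor found at every stage of the lineage (chr15:79154908-79165240, minus strand), measured 54.5, 54.3, 55.3, 44.7 and 57.8 CPM in young mice. The old mice had 64.3, 59.4, 67.5 and 64.7 CPM, all above the highest young value. The lowest young value was that of replicate 4, the library that stood apart. Sox10 rose from 53.3 ± 5.03 to 64.0 ± 3.36 CPM (SD, n = 5 and 4), a log2 fold change of 0.27 (SE 0.064, edgeR adjusted p = 0.0136), and without that library the log2 fold change was 0.21 (adjusted p = 0.0096).

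Sox8, the SoxE relative whose function overlaps in part with that of Sox10 (chr17:25565892-25570686, minus strand), went the other way. Young mice had 54.5, 59.0, 56.3, 52.3 and 54.0 CPM, and old mice had 50.04, 51.9, 48.5 and 43.1 CPM. The gap between the ages was narrow, from 51.9 to 52.3 CPM, and the log2 fold change was -0.19 (SE 0.054, edgeR adjusted p = 0.0308). This call was lost on leaving out young replicate 1, 2, 3 or 5 or old replicate 4 or 5 (adjusted p 0.051 to 0.109), and was kept without young replicate 4 (-0.21, adjusted p = 0.0228). For the opposite-strand gene that overlaps Sox8 the log2 difference was -0.033 (adjusted p = 0.855).

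Because both SoxE genes are read in the same library, the scaling between libraries cancels in their ratio. On the log2 scale the ratio of Sox8 to Sox10 was -0.0014, 0.12, 0.025, 0.23 and -0.099 in young mice and -0.36, -0.19, -0.47 and -0.58 in old mice. All old mice thus held less Sox8 relative to Sox10 than any young mouse. This already follows from both genes separating the ages in opposite directions, so the ratio and its test add no independent support. On the linear scale the geometric mean ratio was 1.04 in young and 0.756 in old brain, and the log2 difference was -0.46 (exact two-sided permutation test over 126 splits, p = 0.00794, the smallest it can give, and adjusted p = 0.0238 over 3 ratios). Without young replicate 4 the difference was -0.41, and the call was lost (exact permutation test, adjusted p = 0.0857). The same adjusted p came from leaving out any other young mouse, it was 0.0536 without old replicate 1, 3 or 4, and only without old replicate 5 did the ratio still pass (-0.40, adjusted p = 0.0268), in designs where fewer splits limit how small p can be.

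The Olig1 to Olig2 ratio averaged 2.09 ± 0.18 in young and 1.91 ± 0.11 in old brain on the log2 scale (SD, n = 5 and 4). These values overlapped, and the difference of -0.17 did not pass (exact permutation p = 0.151, adjusted p = 0.151), nor did it without young replicate 4 (-0.21). For Nkx2-2 to Nkx6-2 the means were -1.43 ± 0.15 and -1.82 ± 0.34, a log2 difference of -0.39 (exact permutation p = 0.0635, adjusted p = 0.0952). Without old replicate 5, the one old mouse within the young range, that difference was -0.55 (exact permutation test, adjusted p = 0.0268), and without young replicate 4 it was -0.43 (adjusted p = 0.114).

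**Figure D3:**
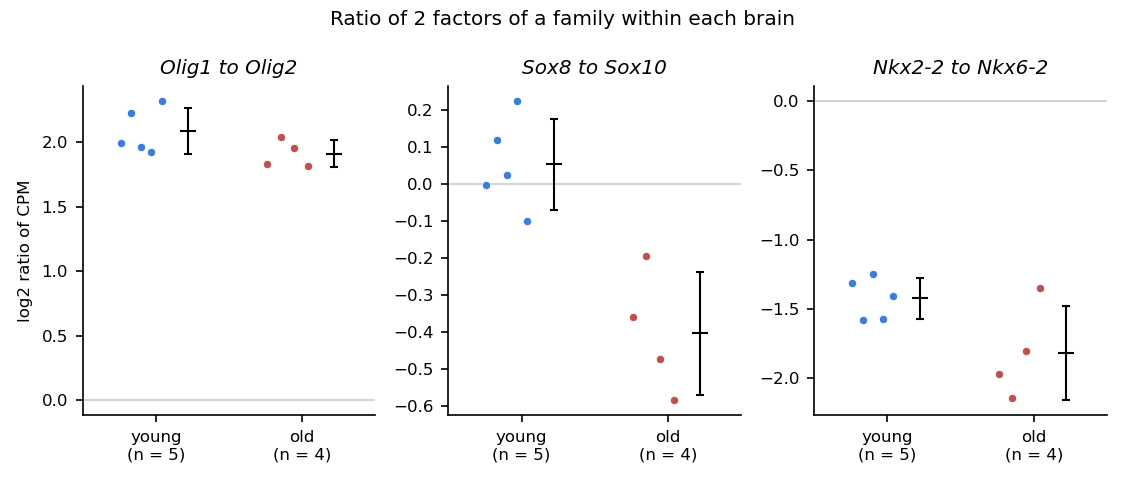
Log2 ratio of CPM within each pair of related factors, 1 point per mouse, with means ± SD for 5 young and 4 old mice. Old and young mice are separate for Sox8 to Sox10 (young -0.099 to 0.23, old -0.58 to -0.19) and overlap for the other pairs.

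Myrf, the activator of the myelin genes (chr19:10208272-10240748, minus strand), had the highest fold change of the 10. Its young values were 87.4, 83.9, 96.8, 85.5 and 93.0 CPM and its old values were 103.6, 119.6, 120.0 and 111 CPM. The lowest old mouse lay above the highest young one. Myrf rose from 89.3 ± 5.39 to 113 ± 7.86 CPM (SD, n = 5 and 4), that is 1.27-fold (log2 fold change 0.35, SE 0.051, edgeR adjusted p = 0.000443), and it was called in all 9 fits that left out 1 mouse.

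The homeodomain factors act at opposite ends of the lineage, Nkx2-2 in precursors and early differentiation and Nkx6-2 in myelinating oligodendrocytes. Nkx2-2 (chr2:147177546-147194243, minus strand) measured 7.11, 8.24, 9.35, 6.33 and 8.65 CPM in young mice and 6.21, 5.08, 6.62 and 7.22 CPM in old mice. The lower range of the old mice overlapped the young, and the log2 fold change of -0.32 (SE 0.129) did not pass (edgeR adjusted p = 0.121). Leaving out young replicate 4, which had the lowest young value, gave -0.40 and an adjusted p of 0.0472. This was the only 1 of 24 alternatives in which Nkx2-2 was called. Nkx6-2 (chr7:139579376-139582797, minus strand) ranged from 17.9 to 24.9 CPM in young and from 18.6 to 24.7 CPM in old mice, with a log2 fold change of 0.066 (SE 0.103, adjusted p = 0.737).

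The remaining factors were not called, and their ages overlapped. Tcf7l2, an HMG-box effector of Wnt signalling that marks newly formed oligodendrocytes and also thalamic neurons (chr19:55741820-55933654, plus strand), ranged from 41.4 to 51.2 CPM in young and from 40.5 to 47.9 CPM in old brain (log2 fold change -0.084, SE 0.061, adjusted p = 0.423). Thalamic marker genes moved with age: their summed level was 483 to 524 CPM in young and 437 to 476 CPM in old brain, 3 of 10 were called lower and none higher, so that their part in the Tcf7l2 values and age cannot be told apart. With these genes as a covariate the log2 fold change was 0.28 for Myrf, -0.15 for Olig1, -0.18 for Sox8 and 0.12 for Sox10, none of them called, and 144 genes were called in all. St18, a zinc finger protein of the Myt family (chr1:6487231-6860940, plus strand), ranged from 25.0 to 33.7 CPM in young and from 27.7 to 35.6 CPM in old brain (log2 fold change 0.038, SE 0.095). Zfp488, a zinc finger partner of Olig2 in differentiation (chr14:33967070-33978764, minus strand), had only 42 to 83 reads per library and a log2 fold change of 0.0031 with the widest error of the 10 (SE 0.163).

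Levels can be compared between genes only per length, for which the deposited TPM values (transcript levels corrected for length and depth) were used. Olig1 led with a mean of 149 TPM over the 9 libraries, above Sox10 (53.1 TPM) in all of them. Sox10 exceeded Sox8 (41.8 TPM) in 8 of 9 libraries, and Sox8 exceeded Olig2 (32.9 TPM) in 9 of 9. The order of Olig2, Myrf (28.9 TPM) and Nkx6-2 (28.5 TPM) was not fixed: Olig2 was above Myrf in all 5 young but only 2 of 4 old libraries, and Myrf was above Nkx6-2 in 1 of 5 young and 3 of 4 old libraries. Tcf7l2 (12.8 TPM) was above St18 (11.96 TPM) in 8 of 9 libraries, although the range of each held the mean of the other, while Nkx2-2 (6.34 TPM) and Zfp488 (2.0 TPM) were lowest. The 4 factors called with age were the 4 with the most reads before the length correction.

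**Figure D4:**
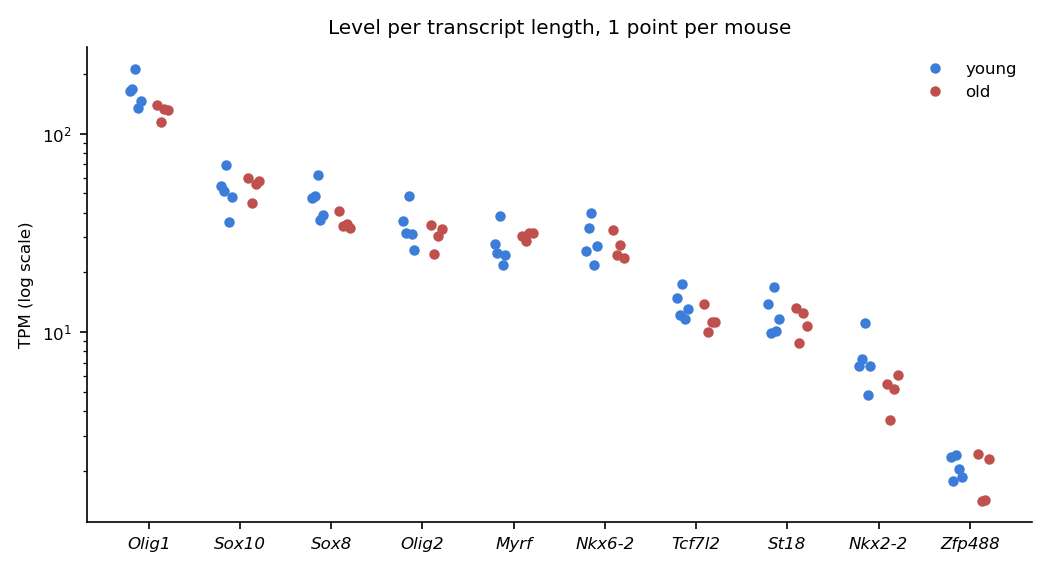
TPM of the 10 factors on a log axis, ordered by mean level, with 1 point per mouse in 5 young and 4 old mice. Levels run from about 2.0 TPM for Zfp488 to 149 TPM for Olig1, and Olig2, Myrf and Nkx6-2 lie within one another's spread.

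Other genes of the lineage were counted on lists of family relatives, partners and other regulators, and precursor, differentiating and mature oligodendrocyte genes. Over these 5 lists, 27 of 127 tested genes (21.3%) were called, 11 higher and 16 lower, beside 11% of all tested genes (6.09% higher and 4.89% lower). Among family relatives, 1 of 9 rose (Tcf7, a relative of Tcf7l2, log2 fold change 0.41, adjusted p = 0.0372) and none fell. Tcf7 was called in 2 of the 9 fits that left out a mouse, those without young replicate 2 or 3. Sox9, the third SoxE gene and an astrocyte factor, was not called at -0.13 (adjusted p = 0.147), nor were Myt1l, a neuronal relative of St18, at -0.10 and Nkx6-1 at -0.42, the latter with only 0.956 to 3.44 CPM. Of the 49 partners and regulators, 3 rose and 4 fell. The basic helix-loop-helix repressor Bhlhe41 had the lowest p of that list, with 50.7 ± 1.09 CPM in young and 69.4 ± 2.26 CPM in old brain (SD, n = 5 and 4, edgeR adjusted p = 5.46e-06), and Sox11, a SoxC factor of immature cells, fell (log2 fold change -0.31). The zinc finger genes Zfp536 and Zfp365 went opposite ways (0.28 and -0.19), and Zfp365 was no longer called without young replicate 1 or old replicate 5 (adjusted p 0.0548 and 0.0663).

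Precursor genes held 3 of 22 that fell and none that rose, a share of calls near that of all genes, with a median log2 fold change of -0.055. Those that fell were Cacng4, an AMPA receptor auxiliary subunit (-0.28), the secreted protein C1ql1 (-0.43) and the sialidase Neu4 (-0.31, adjusted p = 0.0499). Leaving out a mouse kept the call of Cacng4 in all 9 fits, of C1ql1 in 4 (without young replicate 1, young replicate 4, old replicate 3 or old replicate 4) and of Neu4 in 2 (without young replicate 2 or old replicate 4). Emid1, a secreted matrix protein gene, had a log2 fold change of -0.43 that did not pass (adjusted p = 0.0616). The receptor Pdgfra, which defines precursors, was not called at a log2 difference of 0.051 (adjusted p = 0.605), nor was the proteoglycan Cspg4 at -0.11 (adjusted p = 0.275). Genes of differentiating oligodendrocytes were called lower in 4 of 18 and higher in 1. Gpr17, a receptor of premyelinating cells, fell from 38.8 ± 2.87 to 21.9 ± 1.63 CPM (SD, n = 5 and 4, log2 fold change -0.83, SE 0.065, edgeR adjusted p = 1.26e-06), with -0.84 without young replicate 4. The ubiquitin ligase gene Rnf122 (-0.60) and the zinc transporter gene Tmem163 (-0.31) fell as well, while the adhesion protein gene Tns3 rose (0.28).

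Mature oligodendrocyte genes were split, with 6 of 29 higher and 5 lower and a median log2 fold change of -0.021. The iron carrier Trf (0.41), the nodal matrix link protein Hapln2 (0.61) and the myelin protein gene Mbp (0.26, not called without old replicate 3) rose, whereas the sulfatide enzyme gene Gal3st1 (-0.35) fell. The summed level of these 29 genes was 7750 to 9042 CPM in young and 8380 to 10270 CPM in old brain, so the ages overlapped. With the mean log2 CPM of the mature genes as a covariate, Myrf (0.31), Sox10 (0.26, adjusted p = 0.0178), Olig1 (-0.17) and Sox8 (-0.19, adjusted p = 0.0316) were still called. With the 22 precursor genes as a covariate, Myrf alone was called (0.40), and 410 genes were called in all. The log2 fold changes of the others were about as large as before, at 0.28 for Sox10 (adjusted p = 0.247), -0.18 for Olig1 (adjusted p = 0.216) and -0.18 for Sox8 (adjusted p = 0.379). The precursor genes summed to 1575 to 1670 CPM in young and 1451 to 1597 CPM in old brain. This covariate thus moved in part with age, and its part and that of age cannot be fully told apart.

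**Figure D5:**
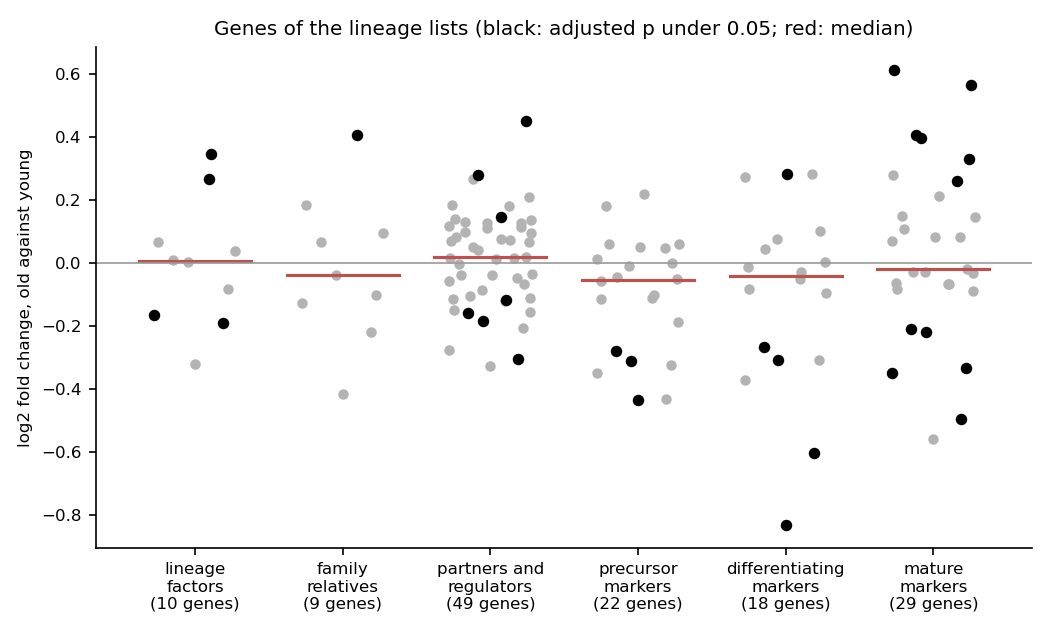
Log2 fold change, old minus young, of each tested gene on the lineage lists, where black points passed an adjusted p under 0.05 in edgeR, grey points did not, and red lines are list medians. Precursor genes that passed all lie below 0, mature genes that passed lie on both sides, and Gpr17 (-0.83) is the lowest black point.

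Markers of other brain cells were examined beside the factors. Of 10 endothelial genes 5 were higher and none lower, with a median log2 fold change of 0.21. Their summed levels were 289 to 311 CPM in young and 329 to 374 CPM in old brain. Of 10 homeostatic microglia genes 1 was higher, with a median of 0.20 and sums of 233 to 326 and 308 to 367 CPM. Astrocyte genes (1 of 10 lower) and neuron genes (2 of 10 lower) had median log2 fold changes of 0.0014 and -0.032. Schwann and olfactory ensheathing cells also express Sox10, and their genes (9 tested, 1 higher and 1 lower) summed to 57.2 to 75.2 CPM in young and 52.6 to 81.9 CPM in old brain. Olfactory bulb genes, which differ with dissection, summed to 131 to 224 CPM in young and 130 to 325 CPM in old brain. Their median log2 fold change was 0.62 (range -0.26 to 1.97), although 0 of 9 were called by edgeR and 0 had an unadjusted p under 0.05. The part of these cells in the values of the 10 factors was not tested, other than with the covariates given here and below.

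For each factor, the gene with the most similar pattern over the 9 libraries was found among 14463 genes, by the root mean square difference of centred log2 CPM. For Myrf this was Trf (0.044), a gene of the mature list, closely followed by Tnfaip6 (0.045), which is not on that list. For Olig1 it was Cisd1 (0.024), a mitochondrial iron-sulfur protein gene, closely followed by Stau2 (0.0241). The nearest gene was Cib1 for Sox10 (0.048), Fam19a2 for Sox8 (0.040) and Gxylt1 for Olig2 (0.031). Tcf7l2 was nearest to Kcnj11 (0.044), Nkx6-2 to Spint2 (0.061), St18 to Lurap1 (0.067), Nkx2-2 to Calb2 (0.084) and Zfp488 to 1810021B22Rik (0.101). Calb2 is on the list of olfactory bulb genes. The 10 factors were left out of the genes searched, so none could be the nearest gene of another.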

How the data were processed

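Poly(A)-selected RNA of individual mouse brains was sequenced as paired reads by a service provider. Per the study's methods, the authors trimmed reads, aligned them to GRCm38 and deposited raw counts of uniquely mapped reads per gene. The TPM values were deposited by the authors for the same libraries. The deposited normalized counts are a signal scaled between libraries by the authors and were used in an alternative only. 1 further column of per-sample values in each table was not used. The labels gave the groups. Counts were filtered (minimum count 10, minimum total 15), normalized by TMM and tested old against young with edgeR 4.0.16 (quasi-likelihood F-test, robust estimation, Benjamini-Hochberg over 18492 genes) in R 4.3.3, with limma 3.58.1 and DESeq2 1.42.0 for alternatives. The fit was tested on simulated data. The standard error of a log2 fold change was taken from the F statistic, and log2 CPM used a prior count of 2. Ratios were tested by exact two-sided permutation. The common biological coefficient of variation was 6.71%, and no pair of libraries of one age agreed within sampling noise (lowest chi-square per degree of freedom 4.04). p-values measure the spread between mice. Gene symbols came from GENCODE M21 for 49056 of 49315 identifiers.

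The factors and gene lists were chosen with earlier results of these data known. The genes named were the 10 factors, the 4 genes with the lowest p on each lineage list with 3 anchor genes (Pdgfra, Cspg4 and Mbp), and the gene nearest in pattern to each factor. Some genes chosen by this rule are not reported here. Itgax was chosen after its values were seen. Alternatives covered scaling, filters, tools, TPM, marker covariates, thresholds, the replicate block and each mouse left out.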

Additional observations from a re-analysis of the deposited data

Results flagged for a closer look

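Each factor and ratio was searched in each age group for a mouse far from the rest, 26 searches in all, and 2 were found where chance gives about 1.3. Sox10 in young replicate 4 was 5.49 log2 CPM, while the other 4 young mice lay between 5.77 and 5.86. That library also had the raised Itgax level, whose part in the Sox10 value was not tested. Olig2 in old replicate 3 was 4.88 log2 CPM, against 5.05 to 5.07 in the other 3 old mice.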

How the results depend on the processing

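Myrf, Sox10 and Olig1 were called in each of the 9 fits that left out a mouse, and all 4 called factors kept their direction in all 24 alternatives. With 1 mouse left out, 2 factors were called higher in every fit and 1 to 3 lower (the lowest without young replicate 1, 2, 3 or 5 or old replicate 4 or 5, the highest without young replicate 4), and the other lists held 9 to 14 higher and 9 to 16 lower genes (9 lower without old replicate 5, 10 without young replicate 1). The Sox8 to Sox10 difference then ranged from -0.53 to -0.40, with adjusted p up to 0.0857, the smallest that leaving out a young mouse allows beside the other ratios; the Nkx2-2 to Nkx6-2 difference ranged from -0.55 (without old replicate 5, passing) to -0.28.

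On log2(TPM + 1) the median of all genes moved to -0.14 and on log2(TPM + 0.1) to -0.16, and 0 factors were called higher or lower, with 594 and 600 genes called in all against 2031. The median of the factors was -0.14 and -0.16, and the other lists held 0 higher and 5 or 4 lower genes. Relative to the median of all genes, Myrf was 0.31, Sox10 0.24, Olig1 -0.19 and Sox8 -0.21 on log2(TPM + 1). The precursor covariate left 1 factor higher and 0 lower (median -0.15, other lists 4 and 4), and the thalamus covariate 0 and 0 (median 0.14, other lists 2 and 2) with 144 genes called in all, though Myrf (0.28), Olig1 (-0.15) and Sox8 (-0.18) kept most of their size and Sox10 was 0.12; thalamus sums did not overlap between ages, so the covariate and age cannot be told apart. Tcf7 reversed to -0.014 there. The olfactory bulb covariate left 1 lower. At an adjusted p under 0.01, 1 was higher and 0 lower. Fits without robust estimation were added after seeing the data and changed no count by over 1.5 times.

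Deviations of same-numbered mice were at most weakly correlated (0.17, -0.12, 0.088 and -0.024). The labels do not say what the numbers stand for, so these correlations cannot settle whether the numbers pair mice. The replicate block left 2 factors higher and 1 lower, Sox8 being lost (-0.16, adjusted p = 0.0668). The blocked Sox8 to Sox10 difference was -0.44 (exact sign-flip p = 0.125, the smallest it can give, adjusted p = 0.375). Zfp488 had 42 to 83 reads per library, the fewest of the factors.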
